A study of Mus musculus with 4 samples.

Results

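The genes described here were 45 genes of the lysosome, made up of 7 lysosomal membrane proteins, 3 lumenal activators and cofactors, 18 hydrolases, 14 subunits or accessory proteins of the vacuolar proton pump (V-ATPase) and the 3 transcription factors Tfeb, Tfe3 and Mitf. They were chosen by name as genes of lysosomal membrane, hydrolase, proton pump and regulatory function, leaving out the cathepsins and without use of a threshold on their values. All 45 were present among the 54532 genes listed in both count tables, all 45 were protein-coding, and all 45 were among the 13811 genes tested, which were protein-coding and reached 10 counts in the sum of the 4 libraries. The series holds 4 RNA-seq libraries of cultured mouse microglia, 2 from cells given epigallocatechin gallate (EGCG), a flavan-3-ol of green tea, at 1 µM and 2 from cells given vehicle, all collected at 24 h. The question of the comparison was how the flavanol alters the transcriptome of microglia, the phagocytes of the brain.

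All 4 libraries came from CD1 mice, and no genetic alteration was part of the design. Per the study's methods the cells were grown from the cortex of neonatal male pups as mixed glia, expanded with GM-CSF, and freed of the astrocyte layer with trypsin. They were then held in serum-free medium containing IL-34, TGFβ2, GM-CSF and cholesterol before either EGCG or its solvent DMSO was added. Both groups shared all of these conditions, so the growth factors that shape a macrophage in culture were present in the controls too. Total counts ranged from 33805071 to 54970300 per library, with EGCG replicate 2 the deepest, and a count of 3 corresponded to between 0.0546 and 0.0889 counts-per-million (CPM). Of 14 microglia and macrophage markers, 13 exceeded 3 counts in every library, and Siglech was the exception, with 0 to 3 counts. The summed level of these markers was 7268 and 8065 CPM in the vehicle and EGCG libraries of replicate 1, and 11552 and 11187 CPM in those of replicate 2. Markers of fibroblasts and other stroma summed to 428 CPM in vehicle replicate 1, 5.87 CPM in EGCG replicate 1, 161 CPM in vehicle replicate 2 and 179 CPM in EGCG replicate 2, with 4 of the 8 above 3 counts in every library and Lum at 0 counts in EGCG replicate 1. Markers of osteoclasts and GM-CSF macrophages summed to 523, 556, 379 and 539 CPM in the same order, with 6 of 8 above 3 counts in every library. In bulk RNA, fewer cells of a type and less RNA per cell cannot be told apart.

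Lysosomes are acidic organelles in which phagocytes degrade what they engulf. The V-ATPase pumps protons into the lumen using ATP hydrolysed by its cytosolic V1 sector, while the membrane-embedded V0 sector carries the protons across, and the low pH in turn activates hydrolases for lipids, glycans and proteins. Transcription factors of the MiT/TFE family bind a short palindromic element in the promoters of many lysosomal genes and can raise them together when they enter the nucleus.

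The core of that element is shown first, because it is a sequence feature that many lysosomal genes are known to share. Promoter windows, from 250 bases before to 50 bases after the start site, were taken from RefSeq on GRCm38.p6 and matched 39 of the 45 genes; Npc1, Asah1, Atp6v0d2, Atp6v1b2, Atp6v1c1 and Atp6v1h had no entry. The letters TCACGTG, searched on both strands, were found in 11 of the 39 genes (28.2%) and in 4.29% of all 27025 gene symbols with a window. The shorter CACGTG, which lies inside TCACGTG, was found in the same number of members, 11, and in 8.09% of all symbols, and the full palindrome TCACGTGA, which holds both, was found in 4 members and in 1.12% of all symbols. The genes with TCACGTG were Lamp1, Mcoln1, Gla, Glb1, Arsa, Gaa, Naglu, Sgsh, Atp6v0b, Atp6v0d1 and Atp6v1a. A match describes the letters of the window and says nothing of binding in these cells. The sequences below are written 5′ to 3′ on the strand of the gene, with the matching letters in capitals. They show the genes with several matches or the full palindrome. Mcoln1 is shown as a shorter stretch that holds 1 of its 2 matches, and its full palindrome lies in the match that is not shown.
Lamp1 (chr8:13159095-13159154, plus strand): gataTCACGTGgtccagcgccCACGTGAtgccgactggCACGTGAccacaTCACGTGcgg
Mcoln1 (chr8:3500435-3500464, plus strand): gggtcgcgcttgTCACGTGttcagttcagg
Gla (chrX:134601184-134601243, minus strand): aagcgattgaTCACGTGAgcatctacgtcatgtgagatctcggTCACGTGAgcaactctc
Atp6v0b (chr4:117887330-117887389, minus strand): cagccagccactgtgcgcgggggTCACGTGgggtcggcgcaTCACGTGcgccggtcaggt
Atp6v0d1 (chr8:105566061-105566120, minus strand): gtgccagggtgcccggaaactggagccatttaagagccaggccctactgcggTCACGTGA
Atp6v1a (chr16:44139358-44139417, minus strand): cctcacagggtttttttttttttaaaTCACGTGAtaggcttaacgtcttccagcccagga
Lamp1 held 4 such cores between 61 and 15 bases before its start site, whereas the single core of Atp6v0d1 began 3 bases before its start site and that of Atp6v1a 131 bases before. In the lists of related genes, TCACGTG was found in 8 of 40 other lysosomal genes, 1 of 11 other V-ATPase genes, 6 of 21 genes of lysosomal nutrient sensing, 1 of 18 autophagy genes and 2 of 9 cathepsins with a window.

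The lysosomal genes were abundant in every library. Their counts made up between 2.72% and 3.28% of all counts on annotated genes. On the per-length scale of transcripts-per-million (TPM), means over the 4 libraries ran from 11.4 TPM for Sgsh to 10136 TPM for Psap, with a median of 185 TPM. Psap encodes prosaposin, the precursor of the saposin activators of sphingolipid breakdown, and its level was 10795 TPM in vehicle and 11390 TPM in EGCG of replicate 1, and 8936 and 9424 TPM in replicate 2. The next highest by mean TPM were Lamp1 at 2282 TPM, Grn at 1393 TPM, Hexa at 1142 TPM and Laptm5 at 1118 TPM. The lowest after Sgsh were Tfeb at 18.2 TPM, Mcoln1 at 23.0 TPM, Idua at 26.6 TPM and Smpd1 at 29.7 TPM. The plot of TPM by library shows that for most genes the points of the same replicate lay together, whichever the treatment.

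**Figure D1:**
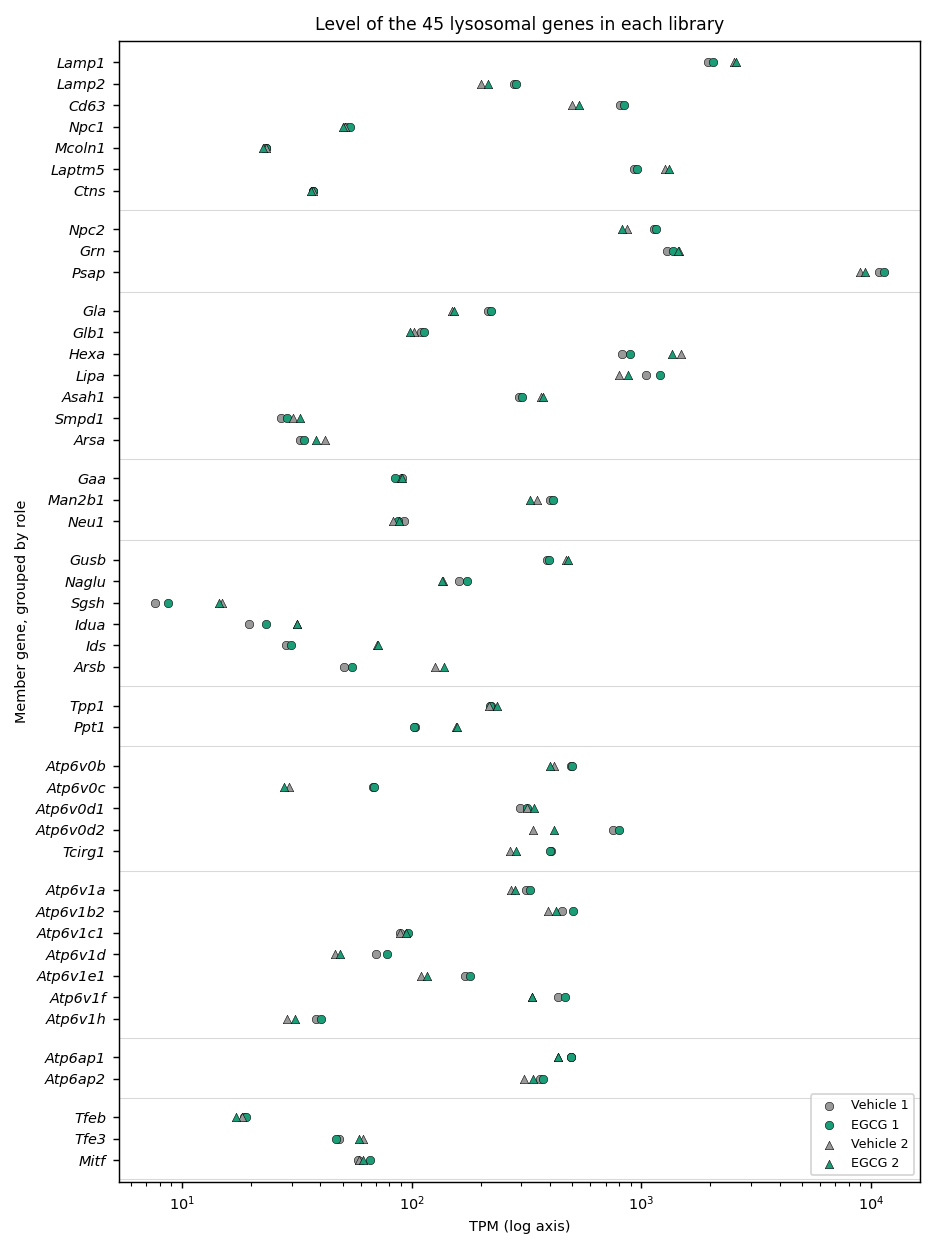
Level of each of the 45 lysosomal genes in TPM (log axis) in the 4 libraries, with genes grouped by role from membrane proteins at the top to MiT/TFE regulators at the bottom. Circles are replicate 1 and triangles replicate 2, grey is vehicle and green is EGCG; Psap lies highest at about 10136 TPM and Sgsh lowest, and points of the same shape lie together for most genes.

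No lysosomal gene differed between EGCG and vehicle past a non-adjusted p of 0.05 when treatment alone was modelled. The count was 0 of 45 by the edgeR quasi-likelihood test and 0 of 45 by DESeq2, and 0.116% of all genes tested passed in the edgeR fit. The smallest non-adjusted p among the 45 was 0.348 by edgeR's quasi-likelihood test, for Smpd1, and every adjusted p was 1.00. With 2 libraries against 2 a permutation test of single genes cannot go below p = 0.333, and every p-value therefore depends on a model and measures only the spread between these samples. The fold changes were small, from -0.02 to 0.20 on the log2 scale, and 42 of 45 were above 0, with Tfe3, Arsa and Gaa below. Among all genes tested 54.2% were above 0, and among the 7033 genes at least as abundant as the least abundant of the 45 the share was 60.7%. The median log2 fold change was 0.08 for the lysosomal genes and 0.01 for all genes tested. The count above 0 was 17 without EGCG replicate 1 and 17 without vehicle replicate 2, with medians of -0.09 and -0.07. It was 34 without vehicle replicate 1 and 32 without EGCG replicate 2. Leaving out 1 library leaves the treatments unequal between replicates, so the difference between replicates enters these counts. They cannot test the direction with EGCG.

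Within replicate 1, 43 of 45 genes were higher with EGCG by log2 CPM, against 58.5% of all genes tested, and the median difference was 0.11. Neu1 and Gaa were the exceptions. Within replicate 2, 32 of 45 were higher, against 50.6% of all genes, and the median difference was 0.05. There were 30 genes that were higher in both replicates, against 29.9% of all genes tested, and 0 that were lower in both, against 20.6%. Across the 45 genes the differences of replicate 1 and replicate 2 correlated with r = 0.15, and across all genes tested with r = -0.05, which describes genes that are not independent replicates. Scaling by total counts in place of TMM gave a median of 0.05 within replicate 1 and 36 higher genes. The share of 58.5% of all genes is for TMM scaling and does not apply to this count. The summed level of the 45 genes was 32275 CPM in vehicle and 35069 CPM in EGCG of replicate 1, a difference of 8.66%, and 26919 and 28106 CPM in replicate 2, a difference of 4.41%. Summed over TPM the differences were 5.12% and 3.19%. The replicate 1 pair was also the pair in which the stroma markers stood apart, at 428 CPM in vehicle and 5.87 CPM in EGCG, and their part in the difference was not tested. In replicate 2 the stroma markers stood at 161 and 179 CPM. EGCG and vehicle libraries did not overlap for 3 genes, Grn, Smpd1 and Atp6v0d1, and for 11.9% of all genes tested.

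When the replicate number was added as a block, 9 of the 45 genes passed a non-adjusted p of 0.05 by the edgeR quasi-likelihood test, all of them higher with EGCG. Of all genes tested 2.12% were higher at that threshold, and of the genes as abundant as the lysosomal genes 3.33%. The 9 genes were Atp6v0d2, Arsb, Lipa, Atp6v0d1, Atp6v1b2, Atp6v1d, Atp6v1h, Atp6v1c1 and Mitf, of which 6 encode V-ATPase subunits. Adjusted p-values of all 45 were between 0.995 and 0.998 in this edgeR fit, so none held after correction. With DESeq2 and the same block 3 genes passed, Atp6v0d2, Lipa and Atp6v1b2, against 0.666% of all genes higher, with an adjusted p of 1.00 for each. With 4 libraries, a fit with the block leaves little to estimate the spread of a single gene. The p-values and standard errors (SE) of single genes in both blocked fits therefore rest largely on spread modelled across all genes tested.

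Atp6v0d2 encodes the d2 isoform of the V0 stalk subunit, abundant in osteoclasts and some macrophages, and lies on chromosome 4 at 19876841 to 19922605 on the minus strand of GRCm38.p6. Its level was 761 CPM in vehicle and 844 CPM in EGCG of replicate 1, and 309 and 389 CPM in replicate 2. It was higher with EGCG in both replicates, but the replicates differed by more than the treatments, and its treatment-only log2 fold change of 0.20 ± 0.62 (SE) gave a non-adjusted p = 0.759 by edgeR. With the block the log2 fold change was 0.24 ± 0.07 (edgeR non-adjusted p = 0.015) and 0.23 ± 0.07 in DESeq2 (non-adjusted p = 0.00197). Lipa, the lysosomal acid lipase that frees cholesterol from its esters, read 1164 and 1380 CPM in replicate 1 and 806 and 889 CPM in replicate 2, and its blocked log2 fold change was 0.19 ± 0.07 (edgeR non-adjusted p = 0.0316). Atp6v1b2, an ATP-binding V1 subunit, read 892 and 1031 CPM in replicate 1 and 702 and 773 CPM in replicate 2, with a blocked log2 fold change of 0.17 ± 0.06 (edgeR non-adjusted p = 0.0336). In all 3 genes EGCG was higher inside each replicate, while vehicle of replicate 1 stood above EGCG of replicate 2.

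Atp6v0d1 encodes the d1 isoform of the same V0 subunit. It read 198 and 220 CPM in replicate 1 and 192 and 209 CPM in replicate 2, which placed both EGCG libraries above both vehicle libraries. Its log2 fold change was 0.14 with either edgeR fit, with a non-adjusted p = 0.353 for treatment alone and a non-adjusted p = 0.0318 with the block. Arsb, the arylsulfatase that trims dermatan sulfate, read 114 and 129 CPM in replicate 1 and 258 and 286 CPM in replicate 2, so EGCG was the higher library of each pair at very different levels of the gene. The remaining V1 genes of this set were Atp6v1d, with 120 and 140 CPM in replicate 1 and 72.3 and 77.2 CPM in replicate 2, and Atp6v1c1, with 187 and 209 CPM and then 169 and 181 CPM. Atp6v1h, the regulatory H subunit, read 140 and 151 CPM in replicate 1 and 94.3 and 104 CPM in replicate 2. Their blocked log2 fold changes of 0.13 to 0.16 had edgeR non-adjusted p-values between 0.0397 and 0.0438. All 14 V-ATPase genes were above 0 in the treatment-only fit, with a median log2 fold change of 0.12, and 12 of the 14 were higher in both replicates, against 29.9% of all genes. Without EGCG replicate 1 and without vehicle replicate 2 the count above 0 was 2 of 14 each, with medians of -0.21 and -0.15. Without vehicle replicate 1 and without EGCG replicate 2 it was 14 each, with medians of 0.37 and 0.33. All 14 were lower in replicate 2, and such fits leave the treatments unequal between replicates, so these counts cannot test the direction with EGCG. Of the 14, Atp6v0b and Atp6v0c, both of the proton-carrying ring, were lower with EGCG in replicate 2. Among 14 other V-ATPase genes tested, 9 were above 0 and 5 below in the treatment-only fit, with a median of 0.03. Of those other genes 3 were higher and 4 lower in both replicates, against 29.9% and 20.6% of all genes.

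**Figure D2:**
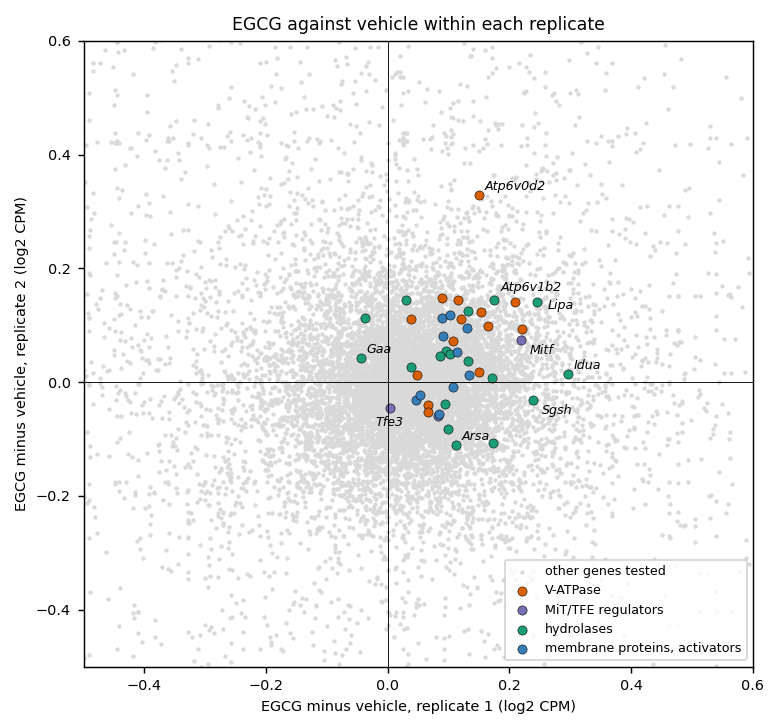
EGCG minus vehicle in log2 CPM within replicate 1 (horizontal) and replicate 2 (vertical) for the 45 lysosomal genes in colour by role and all other genes tested in grey; genes beyond the axes are not drawn. The quadrant of higher values in both replicates holds 30 of the 45 genes and the opposite quadrant 0, and Atp6v0d2 has the highest value in replicate 2.

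The MiT/TFE regulators did not share a direction. Mitf read 135 and 157 CPM in replicate 1 and 124 and 131 CPM in replicate 2, with a blocked log2 fold change of 0.15 ± 0.06 (edgeR non-adjusted p = 0.0493). Tfeb read 39.3 and 41.6 CPM in replicate 1 and 35.0 and 33.6 CPM in replicate 2, higher and then lower with EGCG. Tfe3 read 168 CPM in both libraries of replicate 1 and 194 and 188 CPM in replicate 2, and its treatment-only log2 fold change was -0.02 ± 0.16 (edgeR non-adjusted p = 0.893). These values are of transcripts, and the factors are known to be controlled largely by where the protein sits in the cell. Among the 11 genes with TCACGTG in the promoter window, 9 were higher with EGCG and the median log2 fold change was 0.07, and among the 28 with a window and no match, 27 were higher and the median was 0.08.

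The largest differences among the lysosomal genes lay between the biological replicates. At an adjusted p below 0.1 by the edgeR quasi-likelihood test, 38 of 45 differed between replicate 2 and replicate 1, against 56.7% of all genes tested and 68.7% of genes as abundant. Of these, 28 were lower in replicate 2, against 27.6% of all genes and 29.4% of genes as abundant, and 10 were higher, against 29.1% of all genes. The median log2 fold change was -0.23 for the lysosomal genes and -0.003 for all genes tested. The libraries of the replicates did not overlap for 41 of the 45 genes, against 76.5% of all genes, and 43 of 45 differed in the same direction in the vehicle pair and in the EGCG pair, Grn and Arsa being the exceptions. With 1 library left out between 28 and 36 of the 45 genes were called. The summed microglia markers stood at 7268 and 8065 CPM in replicate 1 and at 11552 and 11187 CPM in replicate 2, and their part in the differences was not tested. Everything that differed between the replicates is in this contrast and cannot be told apart.

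Of the 14 V-ATPase genes, 13 were lower in replicate 2 past the adjusted threshold, with a median of -0.50 (log2) over the 14. The exception was Atp6v0d1 (-0.06 ± 0.07, edgeR adjusted p = 0.544), whose libraries overlapped between replicates and whose value was 0.02 without EGCG replicate 1 and 0.02 without vehicle replicate 2. With 1 library left out, 11 to 13 of the 14 were called. The isoforms of the d subunit therefore stood in different proportion in the replicates. The ratio of Atp6v0d2 to Atp6v0d1 in TPM was 2.54 in vehicle and 2.53 in EGCG of replicate 1, and 1.06 and 1.23 in replicate 2. Atp6v0d2 was 2.30-fold higher in replicate 1, with a log2 fold change of -1.20 ± 0.11 for replicate 2 (edgeR adjusted p = 0.000191). Osteoclast and GM-CSF macrophage markers summed to 523 CPM in vehicle replicate 1 and 379 CPM in vehicle replicate 2. In the EGCG libraries they summed to 556 and 539 CPM. From replicate 1 to replicate 2 of the EGCG libraries, Mmp9 rose from 283 to 348 CPM and Nfatc1 from 42.6 to 64.1 CPM. Dcstamp fell from 187 to 110 CPM and Ctsk from 21.8 to 5.06 CPM. Acp5 fell from 19.0 to 12.1 CPM and Ocstamp from 2.5 to 0.24 CPM. Oscar and Calcr had at most 2 counts in any library. The part of these markers in the difference was not tested. Atp6v1d, which forms part of the central rotor, had a log2 fold change of -0.80 ± 0.08 (edgeR adjusted p = 0.000279). Atp6v1e1, a peripheral stalk subunit, read 263 and 286 CPM in replicate 1 and 153 and 165 CPM in replicate 2, a log2 fold change of -0.79 ± 0.07 (edgeR adjusted p = 0.000108). The calls of Atp6v1b2 and Atp6v1c1 rested on single libraries, with edgeR adjusted p-values of 0.146 for Atp6v1b2 without vehicle replicate 2, and for Atp6v1c1 of 0.310 without EGCG replicate 1, 0.351 without vehicle replicate 2 and 0.146 without EGCG replicate 2, and of 0.144 with genes of all biotypes. Of 14 other V-ATPase genes tested, 7 were lower and 2 higher at an adjusted p below 0.1, against 27.6% and 29.1% of all genes. They included Atp6v1g1 (-0.72 ± 0.07, edgeR adjusted p = 0.000182) and Atp6v0e2 (-0.94 ± 0.08, edgeR adjusted p = 0.000157), both lower.

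Atp6v0c, the subunit that forms most of the proton-carrying ring, had the lowest value among the 45, with a log2 fold change of -1.41 ± 0.06 (edgeR adjusted p = 9.1e-06). It lies on chromosome 17 at 24163866 to 24169702 on the minus strand. It read 85.5 and 89.5 CPM in replicate 1 and 33.6 and 32.4 CPM in replicate 2, with no overlap (as for 76.5% of all genes tested). The size of this difference is uncertain, because the processed pseudogene Atp6v0c-ps2 shares 465 aligned bases with it at 99.8% identity and drew far more reads, 338 and 356 CPM in replicate 1 and 266 and 256 CPM in replicate 2. With the counts of gene and pseudogene summed, the log2 fold change was -0.56 ± 0.06 (edgeR adjusted p = 0.000256). How reads that map to both were assigned is not given in the sources used here. Cd63-ps drew 7.52% of the Cd63 count in vehicle replicate 1, and summing it moved the log2 fold change of Cd63 from -0.83 to -0.80.

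**Figure D3:**
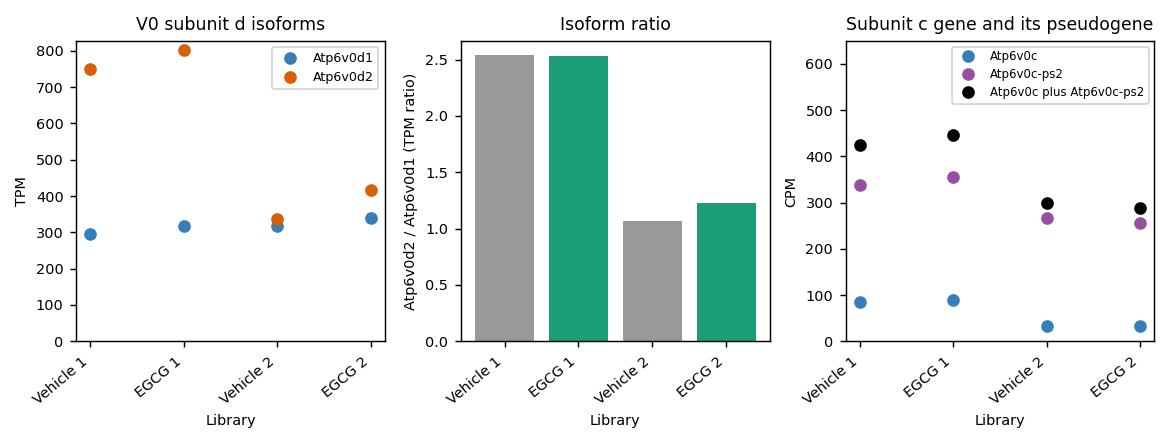
Left, TPM of the V0 d isoforms Atp6v0d1 and Atp6v0d2 in each library; middle, their TPM ratio (grey vehicle, green EGCG); right, CPM of the subunit c gene Atp6v0c, its processed pseudogene Atp6v0c-ps2 and their sum. The ratio is 2.54 and 2.53 in replicate 1 against 1.06 and 1.23 in replicate 2, and the pseudogene lies above the gene in all 4 libraries.

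Glycosaminoglycan hydrolases remove sulfates and sugars from heparan, dermatan and related chains. Of 6, 4 rose in replicate 2 past the adjusted threshold (Arsb, Ids, Sgsh and Idua), Naglu fell and Gusb did not pass, against 29.1% of all genes and 39.2% of genes as abundant called higher. Their median log2 fold change was 0.54. Arsb rose with a log2 fold change of 1.16 ± 0.08 (edgeR adjusted p = 4.52e-05), a level 2.23-fold higher in replicate 2. Ids, the iduronate sulfatase, read 53.9 and 59.0 CPM in replicate 1 and 122 and 125 CPM in replicate 2, and rose 2.19-fold (log2 fold change 1.13 ± 0.06, edgeR adjusted p = 2.21e-05). Sgsh, which desulfates heparan sulfate, read 12.6 and 14.9 CPM in replicate 1 and 22.3 and 21.8 CPM in replicate 2 (0.69 ± 0.10, edgeR adjusted p = 0.00126). The libraries of the 2 replicates did not overlap for any of these 3 genes, nor for 76.5% of all genes tested. Idua, the iduronidase, read 30.8 and 37.9 CPM and then 45.2 and 45.6 CPM (0.40 ± 0.10, edgeR adjusted p = 0.0118), and its edgeR adjusted p was 0.127 without vehicle replicate 2 and 0.131 without EGCG replicate 2. Naglu fell by 0.45 on the log2 scale, and Gusb, at 0.11 ± 0.06, did not pass. Sgsh and Idua overlap Card14 and Dgkq on the opposite strand, by 955 and 124 exonic bases, with Card14 at 32.0% of the Sgsh count and Dgkq at 106% of the Idua count in vehicle replicate 1. Libraries were strand-specific, but use of strand in counting is not given in the sources used here.

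**Figure D4:**
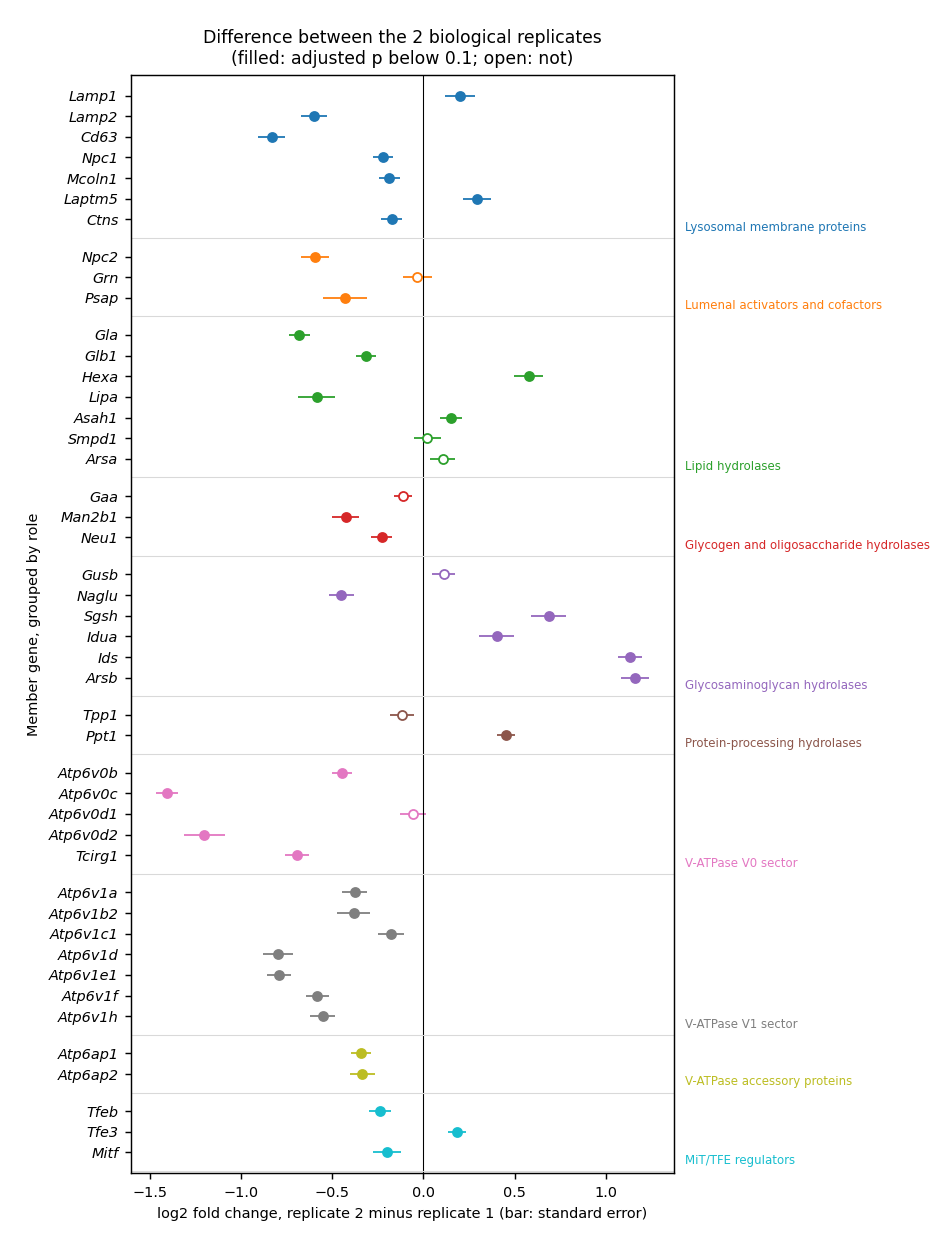
Log2 fold change of replicate 2 minus replicate 1 for each of the 45 genes, grouped by role, with bars for the standard error; filled points passed an adjusted p of 0.1 and open points did not. All 14 V-ATPase genes lie left of 0, and 5 of the 6 glycosaminoglycan hydrolases lie right of it.

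Over all 18 hydrolases, 7 were called higher and 6 lower in replicate 2, shares near those of genes as abundant (39.2% higher and 29.4% lower). Hexa, the alpha chain of beta-hexosaminidase, read 612 and 690 CPM in replicate 1 and 1007 and 935 CPM in replicate 2 (0.58 ± 0.08, edgeR adjusted p = 0.00122). Ppt1, which removes fatty acids from proteins, read 141 and 145 CPM and then 195 and 198 CPM (0.45 ± 0.05, edgeR adjusted p = 0.000366), although it shares 129 exonic bases with the antisense neighbour Cap1, which drew 21726 counts against 4644 for Ppt1 in vehicle replicate 1. Gla, the alpha-galactosidase of globotriaosylceramide breakdown, had the lowest hydrolase value, -0.68 ± 0.06, followed by Lipa at -0.59 ± 0.10, and both fell (edgeR adjusted p = 0.00011 and 0.00279). Glb1, Man2b1, Neu1 and Naglu also fell, and Asah1 rose. Smpd1, the acid sphingomyelinase, read 33.8 and 37.0 CPM in replicate 1 and 34.3 and 37.5 CPM in replicate 2, the closest match between replicates (0.02 ± 0.07, edgeR adjusted p = 0.83). Arsa, which desulfates sulfatide, read 44.98 and 48.6 CPM and then 52.3 and 48.4 CPM, and Gaa, the acid alpha-glucosidase of glycogen, read 162 and 157 CPM and then 145 and 150 CPM. Arsa, Gaa, Gusb, Smpd1 and Tpp1 were the 5 hydrolases that did not pass, although Gaa had an edgeR adjusted p of 0.0286 with upper-quartile factors, 0.0705 with DESeq2 size factors and 0.0549 with at least 10 counts required in every library.

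All 7 membrane proteins passed the adjusted threshold between replicates, 5 lower and 2 higher in replicate 2, where 68.7% of genes as abundant passed. The number called was 6 without vehicle replicate 1, 6 without EGCG replicate 1, 4 without vehicle replicate 2 and 4 without EGCG replicate 2. Cd63, a tetraspanin of late endosomes, read 1113 and 1195 CPM in replicate 1 and 622 and 675 CPM in replicate 2 (-0.83 ± 0.08, edgeR adjusted p = 0.000153), and Lamp2 fell by 0.60 on the log2 scale. Laptm5, a lysosomal protein of blood-lineage cells, read 1320 and 1405 CPM and then 1621 and 1715 CPM (0.29 ± 0.08, edgeR adjusted p = 0.0179). Lamp1, which encodes a heavily glycosylated membrane protein, read 1955 and 2117 CPM and then 2295 and 2382 CPM (0.20 ± 0.08, edgeR adjusted p = 0.0858). The 2 LAMP genes, whose proteins form much of the coat of the lysosomal membrane, thus differed in opposite directions, though the call of Lamp1 was lost without any 1 of 3 libraries, with edgeR adjusted p = 0.133 without vehicle replicate 1, 0.142 without vehicle replicate 2 and 0.204 without EGCG replicate 2. With upper-quartile factors it was 0.128. Mcoln1, the cation channel TRPML1, read 65.8 and 67.9 CPM and then 59.4 and 58.1 CPM (-0.19 ± 0.06, edgeR adjusted p = 0.031), and its edgeR adjusted p was 0.104 without vehicle replicate 2 and 0.128 without EGCG replicate 2, and its DESeq2 adjusted p was 0.171 with treatment as a second term. The assignment of its reads is uncertain, since a stretch of at least 200 bases of a Mcoln1 transcript matched transcripts of 129 other genes at 90% identity or more. Npc1 and Ctns, exporters of cholesterol and cystine, had log2 fold changes of -0.22 and -0.17.

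Among the lumenal activators Psap read 11062 and 12104 CPM in replicate 1 and 8305 and 8874 CPM in replicate 2 (-0.43 ± 0.12, edgeR adjusted p = 0.0226), with edgeR adjusted p = 0.199 without vehicle replicate 2 and 0.131 without EGCG replicate 2. Npc2, the lumenal sterol carrier, fell by 0.59 on the log2 scale. Grn, the precursor of the granulins, read 1679 and 1843 CPM in replicate 1 and 1713 and 1729 CPM in replicate 2 and did not pass (-0.03 ± 0.08, edgeR adjusted p = 0.756). Of the regulators, Tfeb had a log2 fold change of -0.24 in replicate 2, Mitf of -0.20 and Tfe3 of 0.18, with edgeR adjusted p-values of 0.0156, 0.0744 and 0.0197. The call of Mitf was lost without EGCG replicate 1 (0.344), vehicle replicate 2 (0.369) or EGCG replicate 2 (0.211), and with genes of all biotypes (0.131). With DESeq2 and treatment as a second term the adjusted p-values of Tfeb and Tfe3 were 0.163 and 0.106. Genes with TCACGTG in the promoter window had a median log2 fold change of -0.19 (8 of 11 called), and those with a window and no match -0.23 (24 of 28 called). In either direction, 68.7% of genes as abundant as the lysosomal genes were called. The share of 8 of 11 lay near this and gives no result about TCACGTG. That of 24 of 28 stood above it, which was not tested.

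Of 51 other lysosomal genes tested, 16 were called higher and 21 lower in replicate 2, with a median log2 fold change of -0.02. Over all genes tested 29.1% were called higher and 27.6% lower. In this list and in the nutrient sensing and autophagy lists, the shares called higher lay near that of all genes. So did the share of autophagy genes called lower, and these shares give no result about the lists. The share called lower stood above 27.6% in this list and in the nutrient sensing and cathepsin lists, which was not tested. Of 22 genes of lysosomal nutrient sensing and MiT/TFE control 7 were higher and 9 lower, of 23 autophagy genes 7 were higher and 6 lower, and of 12 cathepsins 2 were higher and 6 lower. For EGCG against vehicle, 44 of the 51 other lysosomal genes had a treatment-only log2 fold change above 0, with a median of 0.06. Among all genes tested 54.2% were above 0, and among genes as abundant as the described genes 60.7%. In the edgeR fit with the block, 1 of the 51 was higher with a non-adjusted p below 0.05. Over all genes tested 2.12% were higher at that threshold, so this count gives no result about the list. In the same fit, of the other V-ATPase genes 1 was higher and 1 lower, and 0 of the nutrient sensing, autophagy and cathepsin genes passed, with 0 also by DESeq2 with the block.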

How the data were processed

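Poly-A-selected, strand-specific RNA from 2 vehicle and 2 EGCG cultures was sequenced and, per the authors, aligned with HISAT2 to GRCm38.p6. The deposited tables hold raw read counts per gene for each replicate, which the authors had not normalised; the counting program was not given in the sources used here. Counts on unannotated loci (0.11 to 0.156% of each library) were left out. Protein-coding genes that reached 10 counts in the sum of the 4 libraries were tested with edgeR 4.0.16 (TMM, quasi-likelihood F test, Benjamini-Hochberg), R 4.3.3, and DESeq2 1.42.0 as an alternative; the study modelled treatment alone. CPM were TMM-scaled, log2 CPM used a prior count of 2, and TPM used the gene length in the tables. A second fit compared replicate numbers. Scripts were tested on simulated data. Fold change ± SE is from edgeR unless DESeq2 is named.

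Members and lists were chosen with earlier results of these data known, and roles were assigned after the values were seen. Values in every library are given for the regulators, the 5 highest and lowest by TPM, genes with a non-adjusted p below 0.05 in a fit, the 5 most raised and lowered between replicates, the d isoforms and the 3 most raised and lowered by EGCG. The study's sample sheet places same-numbered libraries in 1 table, and replicate 2 minus replicate 1 correlated between vehicle and EGCG (r = 0.641 over 13811 genes, not independent of each other), so the numbers were taken to pair the samples. Similar transcripts were searched with BLAST 2.17.0 against GENCODE M21 (90% identity over 200 bases). Each edgeR SE was derived from the fold change and the F statistic of its fit.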

Additional observations from a re-analysis of the deposited data

How the results depend on the processing

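The numbers that depended most on the processing were those of EGCG against vehicle, where 16 of all genes had a non-adjusted p below 0.05. The count was 3 with at least 10 counts in every library, 35 with genes of all biotypes, and 8 to 134 with 1 library left out. With the replicate block it was 444 by edgeR and 153 by DESeq2; of the lysosomal genes 9 and 3 passed, against 0 without the block. At an adjusted p below 0.1 the count was 0 in edgeR, also with 1 library left out, 1 in DESeq2, 1 in edgeR with the block and 7 in DESeq2 with the block. The number of lysosomal genes above 0 was 37 to 42 across tests, scalings, filters and the block, and 17 to 34 with 1 library left out. Their median was 0.06 to 0.08 in the former and -0.0914 to 0.1915 in the latter. This median was -0.09 without EGCG replicate 1 and -0.07 without vehicle replicate 2. With upper-quartile factors 37 lysosomal genes were above 0, where 46.7% of all genes tested were. With TMM these were 42 and 54.2%. Leaving out 1 library leaves the treatments unequal between replicates, by construction. The difference of the summed level in replicate 1 was 5.12% in TPM and 4.53% with total counts, and the median within replicate 1 was 0.0511 with total counts. Between replicates, the count of lysosomal genes called was 28 to 39 and of those lower 30 to 33 in every alternative; over all genes DESeq2 with treatment as a second term called 4969. The total-count scaling of the sum, the summing of pseudogene counts and the restriction of the background to genes as abundant were chosen after seeing the data. Groups of 2 leave no way to test whether the effect of EGCG differed between replicates.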
